A study of Mus musculus with 2 samples.

Results

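The semaphorin, plexin, ephrin and Slit guidance genes of differentiating mouse ESCs were picked by symbol from a table of FPKM (fragments scaled to transcript length and library size) that the authors deposited. The rule found 68 of the 24354 genes. They comprise 35 ligands (20 semaphorins, 5 ephrin-A, 3 ephrin-B, 3 Slit and 4 netrin genes) and 33 receptors (9 plexins, 2 neuropilins, 9 EphA, 5 EphB, 4 Robo and 4 Unc5 genes). Poly(A) RNA was sequenced from 1 library of Diff–CONT ESCs, labelled WT, and 1 library of Diff–iKO ESCs, labelled Ino80 knockout, so no p-value can be given. According to the methods, both lines came from blastocysts with the floxed Ino80 allele, and the iKO line alone carried CreER at the ROSA26 locus. Cells of both groups formed EBs in medium with 8% KSR, were moved to gelatin on day 4, and then spent 7 days in medium with 15% FBS, BMP4 and 0.5 µM 4-OHTM, which activates CreER. How many lines or cultures stand behind a library is not given in the sources used here.

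Ino80 itself was at FPKM 8.90 in Diff–CONT against 10.3 in the library labelled Diff–iKO, so the whole-gene value, which does not resolve the floxed part of the gene, was not lower under the knockout label, and directions below are those between the libraries as labelled. Pairs of values give Diff–CONT first. The FPKM steps of genes with 1 transcript put about 27631490 fragments on genes in the Diff–CONT sample, and 21629212 in the other. A 95% counting interval (Clopper-Pearson) is given for ratios, and it covers counting error only, not the variation between cultures. Xist was at 34 and 1433 fragments, and the Y-linked genes Ddx3y, Eif2s3y and Uty were at least 2-fold lower in the library labelled Diff–iKO, so the libraries also differed in sex-chromosome transcripts. Markers of other cell types differed as well. The summed FPKM of 6 pluripotency markers was 391 in Diff–CONT against 2568 in the library labelled Diff–iKO, mostly from Dppa5a (258 and 2115). Of the 6, 5 were at least 2-fold higher. For 6 visceral endoderm markers the summed FPKM was 162 and 6.95, with all 6 lower by at least 2-fold. In bulk RNA, fewer cells of a type cannot be told apart from less RNA per cell, and the part of these differences in the values below was not tested.

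Guidance proteins carry positional signals between cells and were first studied in growing axons, but they also act in vessels, heart and early mesoderm. Semaphorins signal through plexins, and the secreted class 3 semaphorins mostly need neuropilins as co-receptors. Ephrins are held in the membrane, by a lipid anchor in the A class and a transmembrane segment in the B class, and bind Eph receptor tyrosine kinases on the neighbouring cell, with signals in both directions. Slits are secreted repellents bound by Robo receptors, and netrins are laminin-related cues bound by Unc5 proteins and Dcc.

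More guidance genes were lower than higher in the library labelled Diff–iKO. Of the 68 genes, 58 had an FPKM of at least 2 in 1 library or both. Among these, 5 (8.62%) were at least 2-fold higher in the library labelled Diff–iKO, namely Epha2, Sema4b, Sema4f, Sema3e and Robo4, and 19 (32.8%) were at least 2-fold lower. Of all 12376 genes that reached this FPKM, 6.73% were called higher and 8.39% were called lower. The ratio was below 1 for 44 of the 58 genes (75.9%), against 50.3% of all genes. The counting interval lay wholly beyond a 2-fold difference for 15 of the 24 genes past the cut-off, 2 higher and 13 lower, and touched it for 9. Adding 1 to every FPKM before taking the ratio left 2 higher and 12 lower genes.

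In both roles more genes were past the cut-off downward than upward. Of 32 ligands that reached the FPKM minimum, 3 (9.38%) were past it upward and 8 (25%) downward, and their median log2 ratio (of FPKM + 0.1) was -0.58. Of 26 receptors, 2 (7.69%) were past it upward and 11 (42.3%) downward, with a median of -0.76. Both upward shares are near the 6.73% of all genes, and the downward shares stand beside 8.39%. The median of all 12376 genes was -0.0045. In summed FPKM, which weights the abundant genes, the ligands were at 507 in Diff–CONT against 372 in the library labelled Diff–iKO, 1.36-fold lower, while the receptors were at 646 and 614. The near-equal receptor sums rested on Epha2, without which the receptors summed to 614 and 498. The difference between the ligand and the receptor medians was not tested.

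**Figure D1:**
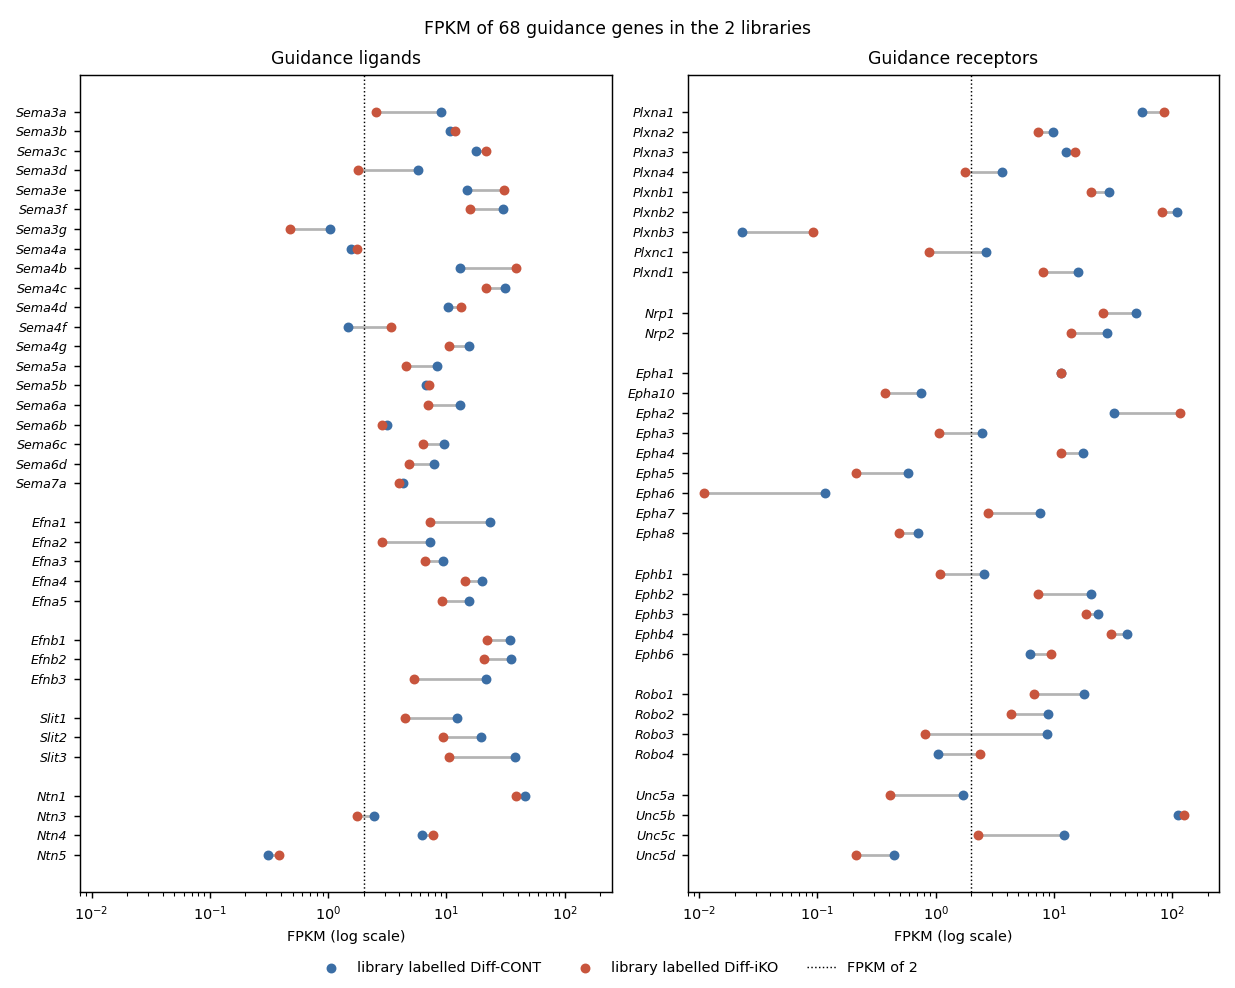
FPKM (log axis) of the 35 guidance ligands and the 33 guidance receptors, 1 row per gene, with a blue point for the Diff–CONT library and a red point for the library labelled Diff–iKO and a dotted line at an FPKM of 2. Most grey bars run to the left from blue to red, Epha2 (31.9 to 116) and Sema4b (13.0 to 38.8) run to the right, and Unc5b and Plxnb2 lie among the highest in both libraries.

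**Figure D2:**
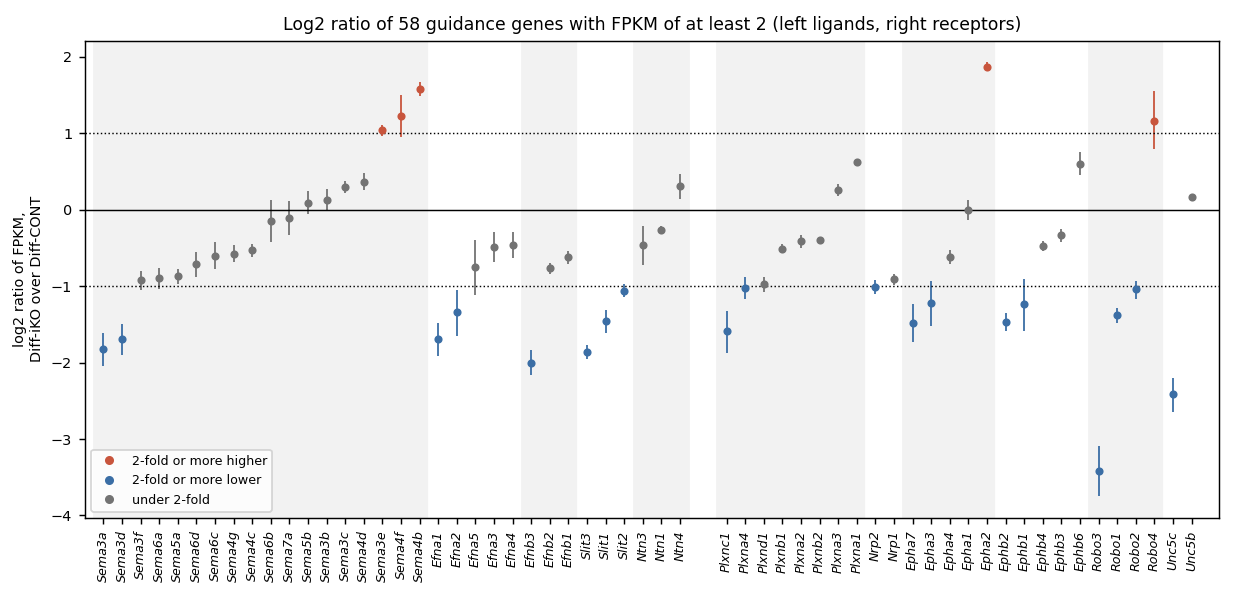
Log2 ratio of FPKM, library labelled Diff–iKO over Diff–CONT library, for the 58 genes with an FPKM of at least 2, grouped by family and with 95% counting intervals as bars (ligands left, receptors right, dotted lines at 2-fold). Robo3 is the lowest point at -3.42 and Epha2 the highest at 1.87, and each of the 8 ephrins and 3 Slits lies below 0.

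The sequences upstream of 6 of these genes are shown, those with the largest differences in each direction among genes that met the following conditions. The gene was past the cut-off, with an FPKM of at least 5 in the higher library. It had a promoter window in RefSeq, with at least 150 bases upstream of both the RefSeq and the GENCODE start. Unc5c, Efnb3, Slit3 and Sema3a fell further than Sema3d and Epha7 but did not meet these conditions. Epha2, Sema4b and Sema3e were higher in the library labelled Diff–iKO, and Robo3, Sema3d and Epha7 were lower. The bases are from RefSeq on GRCm38.p6, 5′ to 3′ on the strand of the gene, and capitals mark matches on either strand to GGGCGG (the GC box), to the CCAAT box, to TATAAA (the TATA box), to AANATGGC (the letters of YY1), or to one of the E-boxes, CACGTG and the Snail or Zeb type CAGGTG. Overlapping matches run together in the capitals.
Epha2, chr4:141300971-141301220 (plus strand): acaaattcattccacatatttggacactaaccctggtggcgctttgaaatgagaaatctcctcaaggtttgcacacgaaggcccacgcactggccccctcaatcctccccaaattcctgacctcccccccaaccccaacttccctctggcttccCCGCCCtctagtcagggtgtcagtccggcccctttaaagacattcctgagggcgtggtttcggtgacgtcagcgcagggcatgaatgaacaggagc
Sema4b, chr7:80186620-80186840 (plus strand): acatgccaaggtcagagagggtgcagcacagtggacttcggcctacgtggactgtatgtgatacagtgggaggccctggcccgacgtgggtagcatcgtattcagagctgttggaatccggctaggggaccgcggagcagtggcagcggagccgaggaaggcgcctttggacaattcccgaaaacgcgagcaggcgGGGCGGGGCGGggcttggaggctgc
Sema3e, chr5:14025026-14025275 (plus strand): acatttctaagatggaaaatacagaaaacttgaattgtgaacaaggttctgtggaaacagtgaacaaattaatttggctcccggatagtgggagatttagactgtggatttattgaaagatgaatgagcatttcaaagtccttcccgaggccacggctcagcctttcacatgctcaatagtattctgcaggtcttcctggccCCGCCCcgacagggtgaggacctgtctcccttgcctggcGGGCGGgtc
Robo3, chr9:37433247-37433425 (minus strand): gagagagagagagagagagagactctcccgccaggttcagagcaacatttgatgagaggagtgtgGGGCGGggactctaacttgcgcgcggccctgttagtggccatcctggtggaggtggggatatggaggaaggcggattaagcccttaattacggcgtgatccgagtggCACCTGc
Sema3d, chr5:12382916-12383165 (plus strand): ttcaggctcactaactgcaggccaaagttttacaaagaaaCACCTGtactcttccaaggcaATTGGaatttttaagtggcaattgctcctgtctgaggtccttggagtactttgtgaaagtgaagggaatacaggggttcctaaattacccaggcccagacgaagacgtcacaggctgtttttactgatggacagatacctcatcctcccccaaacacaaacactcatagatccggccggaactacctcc
Epha7, chr4:28812881-28813130 (plus strand): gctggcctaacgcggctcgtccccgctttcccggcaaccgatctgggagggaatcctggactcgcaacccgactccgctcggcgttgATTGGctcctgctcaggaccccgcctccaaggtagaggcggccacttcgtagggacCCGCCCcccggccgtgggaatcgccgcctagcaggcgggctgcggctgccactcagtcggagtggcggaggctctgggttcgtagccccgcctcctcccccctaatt

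A promoter window of 300 bases (250 before the start and 50 after it) was matched for 59 of the 68 genes. Some lay far from the 5′ end of the gene, such as those of the lower genes Robo1 (635631 bases) and Sema3a (271962 bases). The 59 windows held a median of 22 CpG dinucleotides, near the 21 in the 9424 genes that reached the FPKM minimum and had a window. Over all 17193 genes with a window the median was 13. The median was 22 over the 16 lower genes with a window and 10 over the 5 higher genes, where it ranged from 2 to 26. A GC box was found in 72.9% of the windows of guidance genes and in 66.9% of those of the 9424 genes. It was found in 8 of the 16 lower and 3 of the 5 higher windows. The E-box CAGGTG was in 4 of the 16 lower windows, among them the distant window of Robo1, and in 1 of the 5 higher windows. It was in 13.6% of the 59 and in 17.1% of the 9424, and the E-box CACGTG in 6.78% and 10.4%. The CCAAT box was in 28.8% and 38.9%, the TATA box in 3.39% and 6.85%, and the YY1 letters in 1.69% and 8.93%. Over all 17193 genes with a window the shares were 46.8% for the GC box, 38.8% for CCAAT, 12.8% for TATAAA, 6.79% for YY1, 8.2% for CACGTG and 19.4% for CAGGTG. A match is a description of these letters and not a binding site.

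All 3 Slits and 3 of the 4 Robo genes were at least 2-fold lower in the library labelled Diff–iKO. Slit3, the most abundant Slit, was at FPKM 38.3 in Diff–CONT against 10.6 in the library labelled Diff–iKO, or -1.86 on the log2 scale (interval -1.95 to -1.77). Slit1 was at 12.2 and 4.45 (-1.46, interval -1.61 to -1.31). Slit2 was at 19.4 and 9.32, a log2 ratio of -1.06, and the cut-off lay inside its interval (-1.14 to -0.98). The 3 ligands together were at 70.0 and 24.3, 2.88-fold lower.

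Robo1 and Robo2, the widely expressed Slit receptors, went the same way. Robo1 was at 17.8 and 6.83 (log2 ratio -1.38, interval -1.48 to -1.29), and Robo2 was at 8.84 and 4.29 (-1.04, interval -1.16 to -0.93). Robo3, a divergent Robo known from commissural neurons, was at 8.74 in Diff–CONT against 0.816 in the library labelled Diff–iKO, 10.7-fold lower and the largest difference among the 58 genes (log2 ratio -3.42, interval -3.75 to -3.10). It rested on 1208 and 85 fragments. Robo4, the Robo of endothelial cells, was the exception at 1.05 and 2.36 (log2 ratio 1.16, interval 0.80 to 1.55), from 96 and 162 fragments. Robo3 lies on the minus strand of chromosome 9 from 37415669 to 37433246, and Robo4 lies on the plus strand from 37401897 to 37415115, so their 3′ ends face each other with 553 bases between them. Of 8 endothelial markers, 5 were at least 2-fold lower in the library labelled Diff–iKO and Pecam1 was higher (16.2 and 53.9), with a summed FPKM of 61.0 and 73.7, or 44.8 and 19.8 without Pecam1, and no marker at 0. Their part in the values of Robo4 was not tested.

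Each of the 8 ephrins had a ratio below 1 in the library labelled Diff–iKO, and 3 of them were past the cut-off. Efnb3 was at 21.4 in Diff–CONT against 5.36 in the library labelled Diff–iKO, 4.00-fold lower (log2 ratio -2.00, interval -2.17 to -1.84). Efnb2, a marker of arteries, was at 35.1 and 20.6 (-0.77, interval -0.84 to -0.69). Efnb1, known from neural crest, was at 34.2 and 22.2 (-0.62, interval -0.71 to -0.54), and both stayed short of 2-fold. Efna1 was at 23.5 and 7.28 (-1.69, interval -1.92 to -1.48) and Efna2 at 7.26 and 2.86 (-1.34, interval -1.65 to -1.06). Efna4 (19.9 and 14.4, interval -0.63 to -0.30), Efna5 (15.5 and 9.22) and Efna3 (9.30 and 6.64) did not reach the cut-off. In sum the 8 ephrins were at 166 and 88.6, 1.88-fold lower (log2 ratio -0.91). The 3 other scalings shift every log2 ratio by -0.094 to 0.018, too little to turn the direction of this sum.

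The Eph receptors differed in both directions. Epha2, an EphA receptor of epithelia and of the early embryo, was at 31.9 in Diff–CONT against 116 in the library labelled Diff–iKO, 3.65-fold higher (log2 ratio 1.87, interval 1.81 to 1.92). It was the largest rise among the 58 genes and took Epha2 from rank 10 to rank 2 of the 68 genes by FPKM. Its share of all EphA FPKM was 43.5% and 80.7%. Epha7 (7.64 and 2.74, log2 ratio -1.48, interval -1.74 to -1.23) and Epha3 (2.46 and 1.06, -1.22, interval -1.52 to -0.93) were past the cut-off downward. Epha4, which binds ephrins of both classes, was at 17.6 and 11.5 (-0.62, interval -0.71 to -0.53), and Epha1 was at 11.5 in both libraries. Epha5, Epha6, Epha8 and Epha10 stayed below an FPKM of 2 (0.011 to 0.746).

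The EphA sum was therefore 73.3 and 144, 1.97-fold higher, and without Epha2 it was 41.4 and 27.8, 1.49-fold lower. Among the EphB receptors, Ephb2 was at 20.4 and 7.37 (log2 ratio -1.47, interval -1.59 to -1.35) and Ephb1 at 2.58 and 1.10 (-1.23, interval -1.59 to -0.91). Ephb4, the venous partner of ephrin-B2 and the most abundant of them, was at 41.8 and 30.1 (-0.47, interval -0.54 to -0.41), and Ephb3 was at 23.4 and 18.6 (-0.34, interval -0.42 to -0.25). Ephb6, which lacks kinase activity, was the exception at 6.23 and 9.46 (0.60, interval 0.45 to 0.75). The Epha2 value was higher in the same library as the summed pluripotency markers given above. Of 6 epithelial markers 5 had ratios above 1 with 0 past the cut-off (sum 1468 and 1888). Epcam was at 79.0 and 116, Cdh1 at 166 and 268, Krt8 at 407 and 575, Krt18 at 522 and 721, Krt19 at 119 and 120.4, and Cldn6, the one below 1, at 174 and 87.6. Their part in the Epha2 values was not tested.

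**Figure D3:**
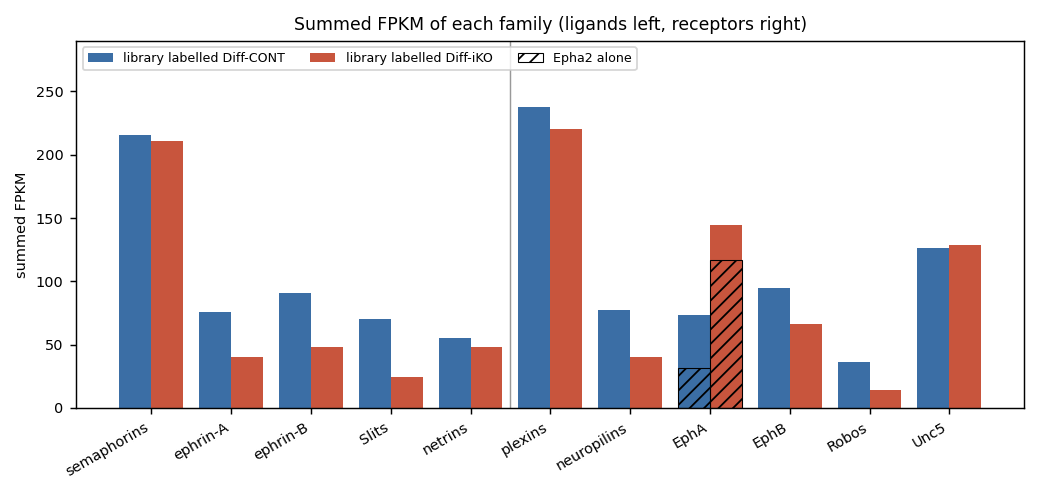
Summed FPKM of all members of each family in the Diff–CONT library (blue) and the library labelled Diff–iKO (red), ligands left and receptors right, with Epha2 hatched within the EphA bars. The ephrin, Slit, neuropilin and Robo bars are lower in red, the semaphorin and Unc5 bars are close, and the EphA bar rises from 73.3 to 144 through Epha2.

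The semaphorins held genes past the cut-off in both directions. Of 18 that reached the FPKM minimum, 3 (16.7%) were at least 2-fold higher in the library labelled Diff–iKO and 2 (11.1%) were at least 2-fold lower. Of all genes 6.73% and 8.39% were called, so the lower share is near that of all genes and the higher share rests on 3 genes. The summed FPKM of the family was 215 and 210.5. Sema4b, a transmembrane class 4 semaphorin, was at 13.0 and 38.8 (log2 ratio 1.58, interval 1.49 to 1.67) and was the most abundant semaphorin in the library labelled Diff–iKO. Sema4f, of the same class, was at 1.46 and 3.41 (1.22, interval 0.95 to 1.5). Sema4d was at 10.2 and 13.2, while Sema4c (31.0 and 21.5, interval -0.62 to -0.45) and Sema4g (15.6 and 10.4) were lower by less than 2-fold.

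Class 3 members differed in opposite directions. Sema3e was at 14.9 against 30.6 (log2 ratio 1.04, interval 0.97 to 1.10), and it dropped under 2-fold once both FPKM sums were set equal. Sema3a, which collapses growth cones, was at 9.02 and 2.55 (-1.82, interval -2.04 to -1.62), and Sema3d was at 5.76 and 1.78 (-1.70, interval -1.91 to -1.50). Sema3f was at 30.2 and 15.9, 1.90-fold lower (-0.93, interval -1.05 to -0.81). Sema3c (17.6 and 21.7) and Sema3b (10.8 and 11.8) were higher by less than 2-fold, and the interval of Sema3b included 0. Sema3d, Sema3a and Sema3e lie in this order on the plus strand of chromosome 5, from 12383385 to 14256689, with gaps of 536.5 kb and 422.7 kb. The neighbours Sema3a and Sema3e were thus past the cut-off in opposite directions, as were Robo3 and Robo4.

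The remaining semaphorins stayed under the cut-off. All 4 class 6 genes had ratios below 1, from Sema6a at 13.1 and 7.01 to Sema6b at 3.16 and 2.85, and Sema6c (9.60 and 6.33) and Sema6d (7.88 and 4.79) lay between them. Sema5a was at 8.29 and 4.52, Sema5b at 6.72 and 7.16, and Sema7a, which has a lipid anchor, at 4.29 and 3.97. The intervals of Sema5b, Sema6b and Sema7a included 0, and Sema5b changed sign once the FPKM sums of both libraries were set equal. Sema3g and Sema4a did not reach an FPKM of 2.

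Plexins, the semaphorin receptors, were among the most abundant guidance genes. Plxnb2 was at 109 and 82.2 (log2 ratio -0.40, interval -0.44 to -0.37), and Plxnb1 was at 29.1 and 20.5, both under the cut-off. Among the 8 plexins that reached an FPKM of 2, Plxna1 had the largest ratio above 1, at 54.9 and 84.2 (log2 ratio 0.62, interval 0.58 to 0.65), and Plxna3 was at 12.7 and 15.2. Plxna2 was at 9.74 and 7.32. Plxnc1 (2.67 and 0.885, log2 ratio -1.59, interval -1.87 to -1.33) and Plxna4 (3.60 and 1.77, -1.03, interval -1.18 to -0.88) were past the cut-off downward. Plxnd1 was just short of it at 15.9 and 8.08, 1.96-fold lower. Plxnb3 lay below 0.1 in both libraries. The whole family summed to 237 and 220.2, and without Plxnb2 to 129 and 138, so the direction of the sum rested on that gene.

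Both neuropilins were lower. Nrp1, a co-receptor for class 3 semaphorins and for VEGF, was at 49.2 and 26.1, 1.88-fold lower (log2 ratio -0.91, interval -0.99 to -0.84). Nrp2 was at 28.3 and 14.0, and its log2 ratio of -1.01 (interval -1.10 to -0.92) lay at the cut-off.

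No netrin gene was past the cut-off, and the Unc5 receptors differed among themselves. Ntn1, which made up 83.7% and 79.6% of netrin FPKM, was at 46.4 and 38.6 (log2 ratio -0.26, interval -0.32 to -0.21). Ntn4 was at 6.27 and 7.74 (0.30, interval 0.14 to 0.46), and Ntn3 at 2.43 and 1.76. Unc5b, the highest of the 68 genes in both libraries, was at 112 and 126 (0.16, interval 0.13 to 0.20). Unc5c was at 12.2 and 2.28, 5.34-fold lower (-2.42, interval -2.65 to -2.20), the fall next in size to that of Robo3 among the 58 genes that reached an FPKM of 2. Unc5a (1.71 and 0.412) and Unc5d (0.442 and 0.212) did not reach the FPKM minimum, nor did Ntn5 (0.310 and 0.382). Without Unc5b the Unc5 genes summed to 14.4 and 2.91. Unc5b made up 88.7% and 97.7% of the Unc5 sum of 127 and 129, whose ratio changed sign once the FPKM sums of both libraries were set equal.

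Ligands were then set beside the receptor families listed for them, using summed FPKM. In the Slit and Robo system both sides were lower, 2.88-fold for the ligands and 2.55-fold for the receptors, so the ligand to receptor ratio was 1.92 in Diff–CONT against 1.70 in the library labelled Diff–iKO. Without Robo3, the divergent Robo, the receptors summed to 27.7 and 13.5, 2.06-fold lower. The ephrin-B and EphB sides were also both lower, 1.88-fold and 1.42-fold. In the ephrin-A and EphA system the sides parted, with ligands 1.87-fold lower and receptors 1.97-fold higher, and the ratio went from 1.03 to 0.280. Without Epha2 the EphA receptors were on the lower side with their ligands.

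Sema3e and its direct receptor Plxnd1 parted the other way, with the ligand 2.05-fold higher and the receptor 1.96-fold lower, and the ratio went from 0.942 to 3.79. Class 4 semaphorins were 1.22-fold higher and plexin-B genes 1.34-fold lower, but without Sema4b the ligands summed to 59.8 and 50.2, 1.19-fold lower and on the side of the receptors. Class 6 semaphorins were 1.61-fold lower and plexin-A genes 1.34-fold higher, but without Plxna1 the receptors summed to 26.1 and 24.3. The class 3 ligands summed to 89.4 and 84.7, and without Sema3e to 74.5 and 54.1, 1.38-fold lower. Neuropilins with plexin-A summed to 158.5 and 149, to 104 and 64.4 without Plxna1, and to 109 and 123 without Nrp1, so the direction turned with the gene left out. Sema7a differed by 1.08-fold while its receptor gene Plxnc1 was 3.02-fold lower. These are ratios of RNA levels per length and measure neither protein nor binding.

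**Figure D4:**
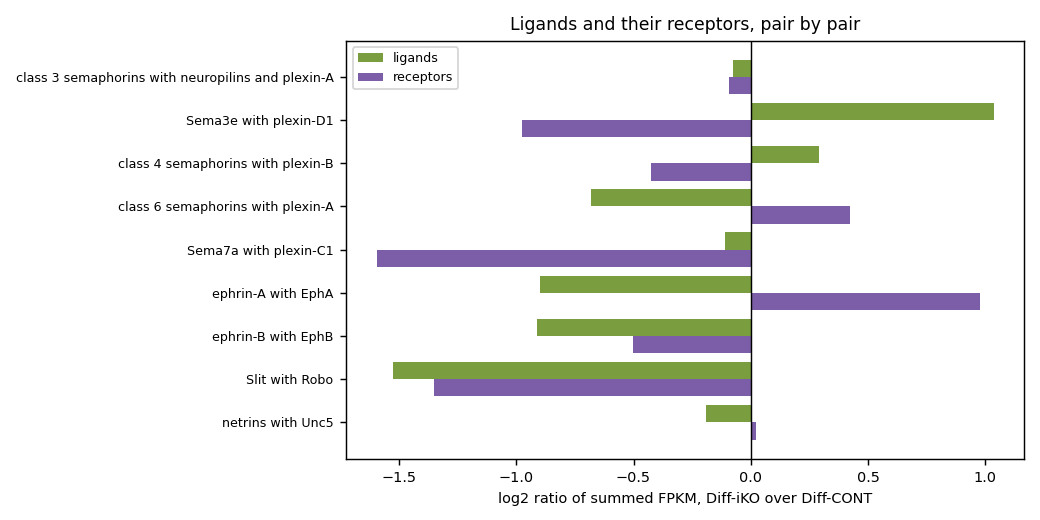
Log2 ratio of summed FPKM, library labelled Diff–iKO over Diff–CONT library, for the ligands (green) and the receptors (purple) of each of 9 pairings. Both bars point left for Slit with Robo (-1.52 and -1.35) and for ephrin-B with EphB (-0.91 and -0.50), and the bars point apart for ephrin-A with EphA (-0.90 and 0.98) and for Sema3e with plexin-D1 (1.04 and -0.97).

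The other genes of these pathways were counted in the same way. Of 15 co-receptors and further cues, 11 reached the FPKM minimum, and 5 of these (45.5%, against 8.39% of all genes) were past the cut-off downward and 0 upward (median log2 ratio -0.56). Dcc, the netrin receptor that attracts axons, was at 4.51 and 0.70 (log2 ratio -2.69, interval -2.94 to -2.45), and Neo1, its relative, was at 38.9 and 34.7. Cntn2 (4.90 and 0.984), Draxin (3.5 and 1.01), Flrt3 (27.2 and 12.3), a partner of Unc5 and Robo proteins, and Rgma (20.6 and 10.2), a ligand of Neo1, were the others past it. Of 34 intracellular mediators, 32 reached the minimum, with 4 (12.5%) past the cut-off downward and 0 upward (median -0.55). This share is near the 8.39% of all genes, but 25 of the 32 ratios were below 1, against 50.3% of all genes. The median of all genes was -0.0045. The other 7 ratios were above 1, among them Mical3 (8.39 and 11.1) and Rasa1 (15.4 and 17.6). The 4 genes past the cut-off were Dpysl2 (12.5 and 4.78), Dpysl4 (8.00 and 3.44) and Dpysl5 (17.0 and 6.17), collapsin response mediator genes that act downstream of Sema3a, and Ablim1 (12 and 5.10). The GTPase genes Rac1 (125 and 113), Rhoa (136 in both) and Cdc42 (174 and 165) were under the cut-off.

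Marker lists of other cell types were counted in the same way. Of 8 neural markers, 7 reached the FPKM minimum and 1, Dcx (5.66 and 2.69), was past the cut-off downward. Of the 7 ratios 6 were below 1 (median log2 ratio -0.55), and the exception was Stmn2 (36.1 and 56.5). The summed FPKM of all 8, in which Stmn2 weighs heavily, was 127 and 120.2, with no marker at 0. Of 8 mesenchyme markers 7 reached the minimum, with 4 past the cut-off downward and 6 ratios below 1. Their sum was 1520.0 and 1510.2, and 640.4 and 311 without Col1a1 (879.6 and 1199). Of 8 cardiomyocyte markers 4 reached the minimum, and all 4 were past the cut-off downward (sum 57.1 and 12.6), among them Tnnt2 (14.7 and 4.17). Of 6 neural crest markers 4 reached the minimum and 2, Foxd3 (1.51 and 3.22) and Ngfr (3.23 and 9.91), were past the cut-off upward (sum 34.9 and 34.8). Ednrb (11.2 and 6.55) and Ets1 (16.3 and 14.2) had ratios below 1. So did Sox10 (0.817 and 0.071) and Tfap2b (1.82 and 0.867), which did not reach the minimum. No marker of these lists was at 0. Of 6 trophoblast markers 5 reached the minimum, with Prl3d1, Tpbpa and Plac1 past the cut-off upward and Cdx2 and Hand1 downward (sum 88.0 and 70.6, and 17.2 and 39.3 without Hand1). Of 6 blood markers 3 reached the minimum. Csf1r was past the cut-off upward, and the embryonic globin genes Hbb-y (35.0 and 0.10) and Hba-x (54.9, and listed at 0) were past it downward (sum 93.6 and 13.6). The part of any of these in the guidance values was not tested.

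The X-linked members Efnb1, Plxna3 and Plxnb3 included none past the cut-off, so the counts of 5 and 19 are the same without them. The strand setting of the counting is not given in the sources used here, and Epha1, Ephb4, Ntn1, Ntn4, Plxna4 and Sema6d share bases with a gene on the opposite strand, so their values may hold reads of both. Ntn3 shares bases with Tbc1d24 on the same strand, so its value may also hold reads of both.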

How the data were processed

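Poly(A) libraries were made with the TruSeq Stranded mRNA kit from 1 µg of total RNA and sequenced as paired ends. The authors deposited FPKM values for 24354 genes in 2 columns, mapped to the samples by their names, with 0 other columns of values. Per the labels and methods, STAR 2.7.9a on mm10 and Cuffquant and Cuffnorm of Cufflinks 2.2.1 were used. The annotation and strand setting are not given in the sources used here.

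Members were selected by symbol. The members, gene lists and settings were chosen with earlier results of these data known. A gene was past the cut-off when its plain FPKM ratio reached 2-fold and the higher FPKM was 2 or more. Medians used log2(FPKM + 0.1), which understates the change of low genes. With 1 library per group no test was possible. Depth came from the FPKM steps of 10487 single-transcript genes in RefSeq (1000 nucleotides or longer). Of their low values, 86.7% (Diff–CONT) and 86.0% (Diff–iKO) lay within 0.2 of a whole multiple, against 40.0% by chance. Fragments per gene used the shortest RefSeq transcript and are approximate. Intervals are exact 95% Clopper-Pearson intervals and cover counting error only.

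Every member reaching FPKM 2 was named with both values, with intervals for those past the cut-off and for the 2 highest of each family. Coordinates are from GENCODE vM21 (GRCm38), which matched all 68 genes, and promoters from RefSeq, with the window nearest the 5′ end of the gene. Ligand and receptor pairings and motifs were listed by hand. Alternatives were other pseudocounts, fold and FPKM minimums and scalings. Steps were tested on simulated data. The tools were matplotlib 3.10.9, scipy 1.17.1, pandas 2.3.3 and numpy 2.4.6 under Python 3.11.15.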

Additional observations from a re-analysis of the deposited data

How the results depend on the processing

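No paired analysis was possible because each group has 1 library, and for the same reason no replicate could be left out. The count of 5 higher guidance genes became 2 with a pseudocount of 1, 0 with FC of 4, 3 with FPKM of at least 5 in 1 library and 3 with FPKM of at least 2 in both. The count of 19 lower genes became 12 with a pseudocount of 1, 30 with FC of 1.5 and 3 with FC of 4. The 10 genes that left the cut-off with a pseudocount of 1 were Epha3, Ephb1, Nrp2, Plxna4, Plxnc1, Robo2, Robo4, Sema3e, Sema4f and Slit2. Scaling to the same sum of FPKM moved all log2 ratios by -0.094, which removed Sema3e and added Nrp1, Plxnd1 and Sema3f below the cut-off.

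The receptor median of -0.76 became -0.66 with a pseudocount of 1, -0.91 with FPKM of at least 1, -0.51 with FPKM of at least 5, -0.86 with equal sums and -0.91 without the X-linked genes, an alternative chosen after seeing the data. The log2 ratio of summed ligands of -0.45 became -0.54 with equal sums. That of summed receptors, -0.072, became -0.17 with equal sums, -0.054 with equal upper quartiles and, also chosen after seeing the data, -0.30 without Epha2. Sums of pairings, families and lists without single genes were also chosen after seeing the data. Summing rows of one symbol changed no count, since no symbol is repeated. Depth limits the low genes most, and the fewest fragments of a gene past the cut-off were 85, for Robo3. The cause of these shifts was not tested.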

Other observations

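Guidance genes that lie close together did not always move together. The genes Efna1, Efna3 and Efna4 follow each other on the minus strand of chromosome 3, with 32.8 kb and 10.4 kb between them. All 3 had ratios below 1, but Efna1 was 3.23-fold lower in the library labelled Diff–iKO, while Efna3 was 1.40-fold and Efna4 1.38-fold lower. Their counting intervals, -1.92 to -1.48 for Efna1, -0.69 to -0.29 for Efna3 and -0.63 to -0.30 for Efna4, put Efna1 apart from its neighbours. Ephb2 and Epha8 on chromosome 4 lie 93.4 kb apart, and both had ratios below 1. Ephb2 was past the cut-off downward, while Epha8 (0.706 and 0.493) did not reach an FPKM of 2. Sema3b and Sema3f on chromosome 9 lie 72.3 kb apart, with log2 ratios of 0.12 and -0.93. Robo1 and Robo2 on chromosome 16 lie 845.7 kb apart on opposite strands, and both were past the cut-off downward.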
